A study of Mus musculus with 2 samples.

Results

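Intragenic intervals here are stretches of DNA that were enriched for Ring1b inside a gene, with summits away from gene starts. They were chosen from the run 2 intervals of the deposited gene table: each lay in at least 1 gene, and its summit was more than 2500 bp from the start of every gene it was assigned to. Of 3938 run 2 intervals, 684 met this rule (17.4%, exact 95% interval 16.2 to 18.6%). The rule used position and no measured height or width. It placed an interval by its summit, so the edges of a wide interval can lie nearer to a start or over it. By the distance from the nearest edge, 638 intervals (16.2%) met the rule. Likewise, a start is called bound, or said to carry an interval, when a run 2 summit assigned to its gene lay within 2500 bp of it. The other run 2 intervals were 2436 with a summit within 2500 bp of an assigned start (start intervals), 393 that were assigned to a gene without lying in one or at a start (flanking intervals), and 425 assigned to no gene.

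The sample was chromatin of incisor pulp cells from CD1 mice at postnatal day 5, after a single injection of 3.3 µg/g EdU, a thymidine analogue that marks cells that copied their DNA, given 24 h earlier. EdU-positive cells were sorted and used for Ring1b chromatin immunoprecipitation and sequencing (ChIP-seq). The labels give 1 ChIP sample and 1 input sample of the same cells, and the tables hold no input values, so enrichment over input was not measured here. Headers in the files list a first and a second replicate of the ChIP; they are called run 1 and run 2 and counted as 1 sample, so values carry no SD and no p-value. No source used here states the read depth or whether the runs came from separate animals. The intervals hold no expression values, so the identity of the sorted cells was not checked against marker genes by level. A height is a sum over all sorted cells, so Ring1b in few cells and little Ring1b in every cell cannot be told apart.

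Ring1b is an E3 ubiquitin ligase and the catalytic core of Polycomb repressive complex 1, which places ubiquitin on histone H2A. Polycomb complexes are best known for keeping developmental regulator genes silent in cell types that do not use them, and in mammals they gather mainly at CpG-rich DNA, most of it at gene starts. An interval inside a gene may lie over a second promoter, a CpG island without a known start, an enhancer or other sequence; the deposited table names only the gene and the distance. The incisor of the mouse grows throughout life, and its pulp holds the dividing mesenchymal cells that replace odontoblasts.

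A gene can have several starts, of which the deposited table uses 1. The RefSeq promoter table (GRCm38.p6, the build mm10 names) holds 300 bp windows that run from 250 bp before to 50 bp after a start, and it covers the chromosomes of 663 of the 684 intervals. The host genes of 493 of these are in the table, and those of the other 170 are not. The summits of 53 of the 493 (10.8%, exact 95% interval 8.16 to 13.8%) lay within 1 kb of another RefSeq start of their own host gene. Of all 663, the summits of 13 more lay within 1 kb of a start of another gene only. The windows of 6 host genes are printed because the interval covered all 300 bp; they are the highest such intervals of distinct genes, and CpG dinucleotides, the sequence feature most tied to Polycomb in mammals, are in capitals. The second start of Runx1, the one the deposited table uses, is printed last because it carried no run 2 interval.
Arrdc3, chr13:80885845-80886144, plus strand: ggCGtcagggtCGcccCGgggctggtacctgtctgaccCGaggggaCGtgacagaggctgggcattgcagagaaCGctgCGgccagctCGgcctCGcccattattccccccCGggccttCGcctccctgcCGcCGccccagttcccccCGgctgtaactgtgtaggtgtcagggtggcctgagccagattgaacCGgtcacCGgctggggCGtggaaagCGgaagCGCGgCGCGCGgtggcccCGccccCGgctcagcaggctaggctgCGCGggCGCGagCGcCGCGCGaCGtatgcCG
Runx1, chr16:92697280-92697579, minus strand: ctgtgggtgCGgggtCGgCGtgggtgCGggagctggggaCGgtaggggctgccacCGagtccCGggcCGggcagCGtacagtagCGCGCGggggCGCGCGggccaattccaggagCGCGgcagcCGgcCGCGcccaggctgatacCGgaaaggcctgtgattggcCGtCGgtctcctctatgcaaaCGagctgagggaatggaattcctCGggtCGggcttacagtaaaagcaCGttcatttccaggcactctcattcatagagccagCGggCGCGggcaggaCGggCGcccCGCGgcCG
Gse1, chr8:120537159-120537458, plus strand: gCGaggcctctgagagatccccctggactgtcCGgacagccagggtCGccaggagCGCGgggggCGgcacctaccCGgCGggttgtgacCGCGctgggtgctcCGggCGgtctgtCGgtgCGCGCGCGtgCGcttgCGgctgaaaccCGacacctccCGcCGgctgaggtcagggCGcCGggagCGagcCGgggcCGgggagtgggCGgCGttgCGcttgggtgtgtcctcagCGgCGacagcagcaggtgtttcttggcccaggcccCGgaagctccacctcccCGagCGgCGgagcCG
Nr5a2, chr1:136953581-136953880, minus strand: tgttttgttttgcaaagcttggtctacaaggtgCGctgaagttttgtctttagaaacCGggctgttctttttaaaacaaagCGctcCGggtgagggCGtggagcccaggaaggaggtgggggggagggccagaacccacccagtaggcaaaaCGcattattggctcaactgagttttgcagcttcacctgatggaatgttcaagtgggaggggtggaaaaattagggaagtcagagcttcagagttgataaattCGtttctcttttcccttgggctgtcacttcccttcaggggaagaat
Zbtb38, chr9:96719801-96720100, minus strand: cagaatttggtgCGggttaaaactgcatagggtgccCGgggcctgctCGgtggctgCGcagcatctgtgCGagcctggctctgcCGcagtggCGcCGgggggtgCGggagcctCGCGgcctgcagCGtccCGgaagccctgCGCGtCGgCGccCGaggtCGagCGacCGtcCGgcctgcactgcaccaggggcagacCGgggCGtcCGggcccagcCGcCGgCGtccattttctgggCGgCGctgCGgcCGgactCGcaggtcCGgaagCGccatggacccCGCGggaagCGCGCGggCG
Cdkn2a, chr4:89282143-89282442, minus strand: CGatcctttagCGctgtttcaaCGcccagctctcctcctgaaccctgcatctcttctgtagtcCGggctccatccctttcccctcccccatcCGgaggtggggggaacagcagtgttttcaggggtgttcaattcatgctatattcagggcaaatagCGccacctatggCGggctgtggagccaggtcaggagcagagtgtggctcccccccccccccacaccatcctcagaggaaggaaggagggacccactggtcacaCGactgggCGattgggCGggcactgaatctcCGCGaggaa
Runx1 other start, chr16:92826025-92826324, minus strand: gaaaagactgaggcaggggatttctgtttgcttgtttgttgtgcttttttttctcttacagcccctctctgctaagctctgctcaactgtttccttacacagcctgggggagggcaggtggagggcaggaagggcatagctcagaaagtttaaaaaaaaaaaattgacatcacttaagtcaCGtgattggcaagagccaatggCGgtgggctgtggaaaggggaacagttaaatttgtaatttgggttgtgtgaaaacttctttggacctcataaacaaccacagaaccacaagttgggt

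Runx1, a Runt-domain factor of blood and skeletal development, is the gene for which both starts are shown. Its internal window held 35 CpG, with 69% G and C, and lay 81 bp from the summit of an interval of height 12 and 1436 bp wide (chr16:92696836-92698271). That summit was 128818 bp from the deposited start, whose window held 2 CpG, with 45% G and C. A further interval of height 9 and 2643 bp wide lay 151 bp away (chr16:92694042-92696684), and it overlapped a run 1 interval of height 3. Arrdc3, which encodes an arrestin-domain protein, had an interval of height 16 over a window with 35 CpG. The Arrdc3 summit lay 95 bp from the internal RefSeq start and 2578 bp from the deposited one. Gse1, a gene for a chromatin-associated protein, had 37 CpG in its window, and the zinc finger gene Zbtb38 had 41. Not all of the windows were rich in CpG: that of Nr5a2, a nuclear receptor gene, held 7, and that of Cdkn2a, which encodes the cell cycle inhibitors p16Ink4a and p19Arf and is a well-known Polycomb target, held 12.

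Over all 39 host windows within 500 bp of an intragenic summit, the median was 28 CpG per window (95% interval of the median 23 to 35), with a range of 1 to 57. The 62 other windows of the same 37 genes had a median of 10 (7 to 17), the 831 host windows within 500 bp of the summit of a start interval had 28 (27 to 29), and all 32851 windows had 7. The internal starts near an intragenic summit thus had the median CpG count of starts near the summit of a start interval. Their 95% interval lay above that of the other starts of the same genes. Windows of 1 gene are counted separately and are not independent, so these ranges may be too narrow, and no difference was tested. These windows were chosen by distance to the summit: the interval covered the whole window for 14 of the 39 (35.9%), and some intervals did not reach it. The share of G and C was 68.7% at the median in the internal windows (62 to 74.7%). It was 59.2% in the other windows of these genes (51.3 to 63%), a range that overlaps the first, and 52.7% over all windows. A GC box, GGGCGG or its reverse complement CCGCCC, was present in 29 of the 39 internal windows (74.4%, exact 95% interval 57.9 to 87.0%). The same letters were in 56.5% of the other windows of these genes (43.3 to 69.0%), and these ranges overlap. They were in 79.4% of the windows at start intervals and 35.7% of all windows. Each GC box contains a CpG, so the motif and the CpG count are not separate measures, and no other motif was searched.

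**Figure D1:**
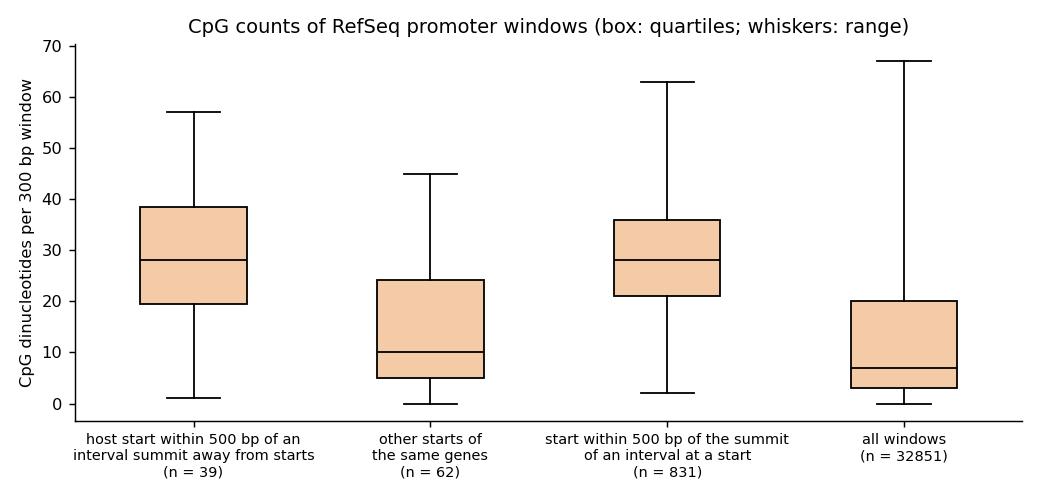
CpG dinucleotides per 300 bp RefSeq window (vertical axis) for, from the left, host starts within 500 bp of an intragenic summit, other starts of the same genes, starts within 500 bp of the summit of a start interval, and all windows; boxes give quartiles with the median line and whiskers the full range. The internal starts and the starts at start intervals share a median of 28, against 10 for the other starts of the same genes and 7 over all windows.

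Where the intragenic summit lay near another start of the host gene, the deposited start was bound for a smaller share of intervals. It was bound for 11 of the 53 intervals within 1 kb of such a start (20.8%, exact 95% interval 10.8 to 34.1%). For the other 440 intervals whose host is in the table, it was bound for 173 (39.3%, 34.7 to 44.1%). A gene with several intervals is counted once for each, so the intervals are not independent and both ranges may be too narrow. That the ranges just miss each other is therefore not read as a difference, which was not tested. Of the 39 intervals within 500 bp, 9 (23.1%) were in a gene where another RefSeq start had a further interval within 2.5 kb, as at Rnf44. At Gnas, an imprinted locus with several promoters, 3 intragenic intervals of heights 9, 7 and 3 lay 43208 to 45408 bp from the deposited start, and those of heights 7 and 3 were within 500 bp of an internal start. Among start intervals, 70.5% of summits lay within 1 kb of a RefSeq start, and among flanking intervals 8.25% did, close to the 9.95% of intragenic intervals (66 of 663).

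The hairpins of 2 microRNAs of the RefSeq table lay under an intragenic interval. Mir196b, a microRNA of the Hoxa cluster that is known to target Hox transcripts, lay under the 5181 bp interval of Hoxa10 (chr6:52229912-52235092), 3509 bp from its summit. Mir7687 lay under the Gse1 interval whose start window is printed above, 1365 bp from its summit. The mature sequences are given with the seed, bases 2 to 8, in capitals, and no seed is shared between them.
miR-196b-5p: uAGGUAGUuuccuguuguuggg
miR-196b-3p: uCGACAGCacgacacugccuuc
miR-7687-5p: aGGCGGGGaaccugaggcgcaggcu
miR-7687-3p: cCACUCAGucgccccgccaca

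Most intragenic intervals were low. Summit heights are whole numbers in the authors' own scale, and the intragenic median was 4, with quartiles of 3 and 5 and a range of 2 to 26. Start intervals had a median of 5, as had flanking intervals, and intervals assigned to no gene had 4. Heights of 5 or more were reached by 302 intragenic intervals (44.2%, exact 95% interval 40.4 to 48.0%), against 51.2% (49.2 to 53.2%) of start intervals and 53.9% of flanking intervals. Those of 6 or more made up 23.5% of intragenic and 29.0% of start intervals. At the top the order did not hold: heights of 10 or more were found in 36 intragenic intervals (5.26%, 3.71 to 7.21%), against 4.06% (3.32 to 4.93%) of start intervals and 4.16% of all run 2 intervals, and these ranges overlap. Intragenic intervals had a median width of 649 bp (633 to 663 bp), against 698 bp (691 to 706 bp) for start intervals and 697 bp for flanking intervals. They were wider than 1000 bp in 16.7% of cases, against 18.7% of start and 24.4% of flanking intervals. All of these ranges cover counting error only, not the spread between samples.

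**Figure D2:**
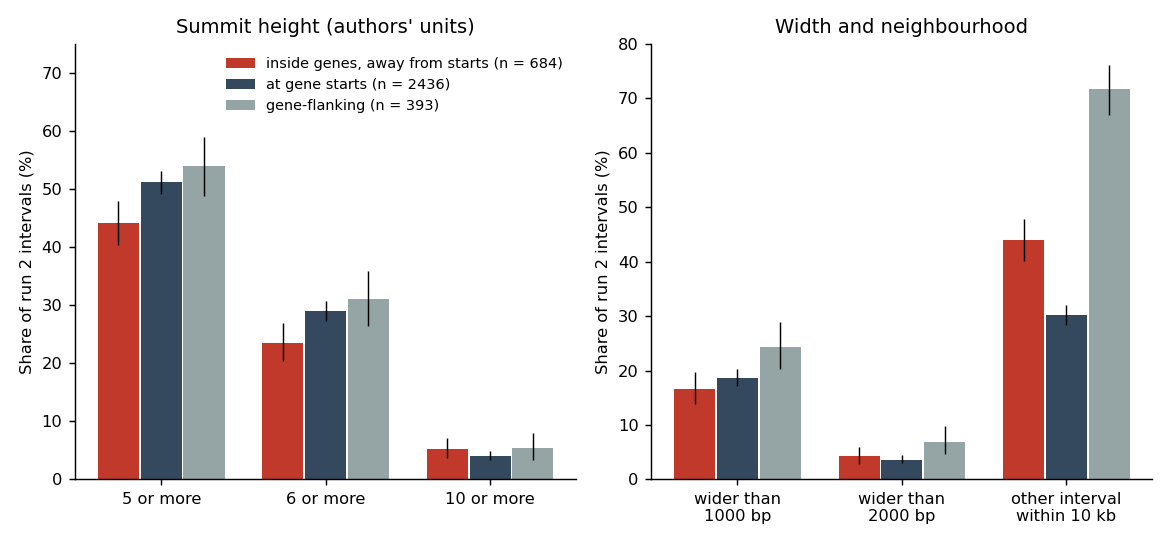
Share of run 2 intervals (vertical axes, percent) that reach 3 summit heights (left) and that are wide or have a neighbour (right), for intragenic, start and flanking intervals; lines are exact 95% intervals for counting error. Intragenic intervals reach a height of 5 in 44.2% of cases, against 51.2% at starts, and have another interval within 10 kb in 44.0%, against 30.2% at starts.

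The 684 intervals were divided into clustered and lone ones. Another run 2 interval lay within 10 kb of 301 (44.0%, exact 95% interval 40.2 to 47.8%), against 30.2% of start intervals and 71.8% of flanking intervals. The clustered intervals had a median height of 5 and a median width of 740 bp, and the 383 lone ones had 4 and 604 bp. Heights of 10 or more made up 10.3% (7.11 to 14.3%) of the clustered and 1.31% (0.425 to 3.02%) of the lone intervals, and widths over 1000 bp 33.6% and 3.39%. The start of the host gene also carried an interval for 276 of the 684 (40.4%, 36.6 to 44.1%). An interval within 10 kb of a bound start counts as clustered by definition, so this share was not compared between clustered and lone intervals. Over all intragenic intervals, the gap to the nearest other run 2 interval had a lower quartile of 994 bp and a minimum of 12 bp, against 1747 bp and 1 bp for start intervals.

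Height and width were lower farther from a start. The nearest assigned start was 11974 bp away at the median, with quartiles of 4748 and 59002 bp. Among the 188 intervals at 2.5 to 5 kb, 11.2% had a height of 10 or more, against 6.06% of 132 at 5 to 10 kb, 2.29% of 175 at 10 to 50 kb and 1.59% of 189 beyond 50 kb. Median widths were 719, 710, 614 and 610 bp in the same bins. The distance threshold cut through a run of like intervals: just inside lay those of Cacnb3 at 2504 bp (height 3), Dbx1 at 2531 bp (height 4) and Barx1 at 2532 bp (height 5), and just outside, among the start intervals, those of En2 at 2496 bp (height 8), Ebf3 at 2493 bp (height 5) and Nsd1 at 2490 bp (height 4).

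**Figure D3:**
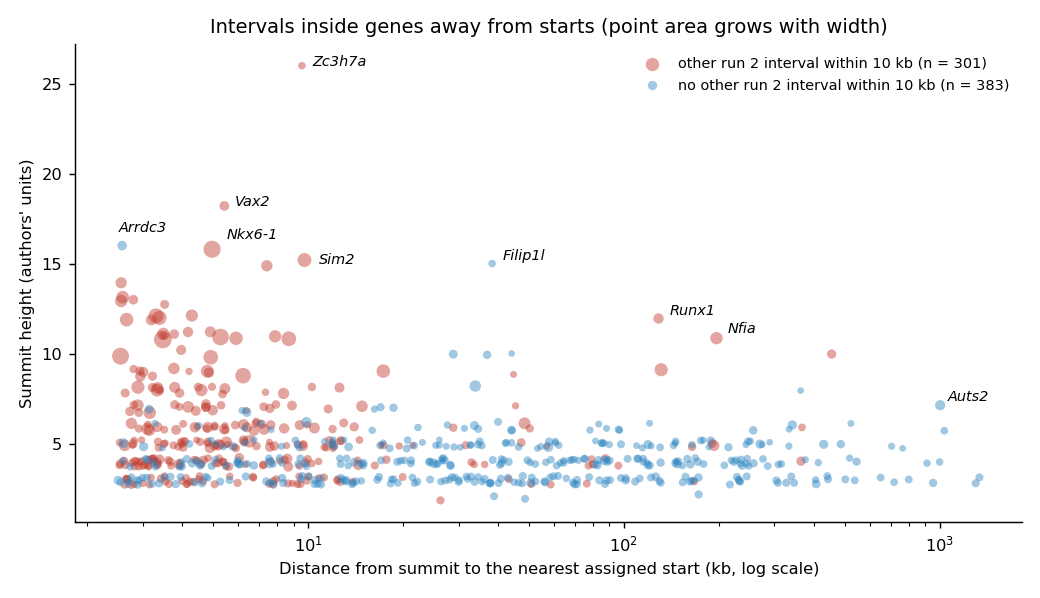
Summit height (authors' units, vertical axis) against the distance from the summit to the nearest assigned start (kb, log scale) for the 684 intragenic intervals, with point area growing with width and a small vertical jitter; red points have another run 2 interval within 10 kb and blue points do not. Heights of 10 or more gather within 10 kb of a start and are mostly red. Zc3h7a at 26, Filip1l at 15 and, beyond 100 kb, Runx1, Nfia and the unlabelled Fam172a (height 10) stand apart.

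The highest intragenic intervals lay mostly, not always, at genes of transcription factors that pattern the embryo. Vax2, a homeobox gene of the ventral eye, reached 18. Nkx6-1, a homeobox gene of neural tube and pancreas, reached 16 over 4863 bp (chr5:101657284-101662146), with its summit 560 bp from the 3' end of the gene. Sim2, a bHLH-PAS gene of the midline, and Tbr1, a T-box gene of the cortex, reached 15 each. The interval of height 14 lay in the RNA gene 2610035F20Rik beside Zic2 and Zic5. Nkx2-3, a homeobox gene of gut and spleen, reached 13, as did an interval in LOC101055810 beside Irx3, a homeobox gene of the Iroquois group. For all of these genes the host start also carried an interval, and another interval lay within 10 kb.

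The 3 others of the 10 highest lay in genes that are not known as patterning factors. The highest of all intragenic intervals, 26, was 529 bp wide (chr16:11143872-11144400), in Zc3h7a, a gene for an RNA-binding zinc finger protein. Its summit lay 32297 bp from the start of Zc3h7a and 9564 bp from that of Txndc11. The start of Zc3h7a also carried an interval, and the nearest interval was 9206 bp away. The deposited mean height of Txndc11 in run 1 was 0, and this interval was 1 of the regions it averages. The intragenic site that was highest in run 2 thus had no height in run 1. Start intervals reached 66 in run 2. The interval of height 15 in Filip1l and Cmss1, 2 overlapping genes, was 509 bp wide (chr16:57391330-57391838), had no neighbour within 214806 bp, and had a run 1 height of 4. Arrdc3 at 16 was also lone, with its nearest neighbour 2681404 bp away and a width of 1154 bp, near the 1192 bp of the Vax2 interval. Lama1, the gene of the laminin alpha-1 chain, had an interval of height 10 and only 269 bp (chr17:67741259-67741527), with a run 1 height of 4.

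The widest intragenic intervals were at Hoxa10 (5181 bp), Nkx6-1 (4863 bp), Rnf220 (4731 bp), Pitx1 (4557 bp), Lhx2 (3935 bp), Isl2 (3606 bp), Sim1 (3463 bp), Dmrta2 (3445 bp), Zic2 (3211 bp) and Sim2 (3053 bp). Except Rnf220, which encodes a ubiquitin ligase, these are genes of transcription factors. Except Rnf220, each also had an interval with its summit within 2500 bp of its start. The Rnf220 summit lay 2547 bp from the deposited start, just beyond the threshold, in an interval of 4731 bp. That Rnf220 counts as having no interval at its start thus rests on the summit alone. Heights over these 10 ran from 9 to 16. Pitx1, a homeobox gene of jaw and hindlimb, had its 4557 bp interval (chr13:55824991-55829547) over most of a gene of 6371 bp, 71 bp from the next interval.

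Host genes numbered 547, or 13.7% of the 3993 genes of the deposited table, of which 496 were protein-coding and 39 long non-coding RNA genes. They held 1 intragenic interval in 458 cases, 2 in 57 and 3 or more in 32. In 312 host genes (57.0%) every run 2 interval assigned to the gene was intragenic, and in 200 (36.6%) the start was bound as well. Sox2ot, a long non-coding RNA gene that contains Sox2, held the most, with 7 of heights 3 to 11. Nr2f2, an orphan nuclear receptor gene, and Pax6, a paired-box gene of the eye, held 6 each, and Tbx15, a T-box gene of skeleton and skin, held 5.

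These genes carried Ring1b in different ways. In Sox2ot the 7 intragenic summits lay from 81475 to 102595 bp past the start of a gene of 117612 bp, on both sides of an interval of height 13 near the start of Sox2, which counts as a start interval. In Nr2f2 no summit lay within 2500 bp of the deposited start, and the highest of the 6 (11) lay 5130 bp into the gene. In Pax6 the start intervals had heights of 5 and 4, and the highest intragenic one (11) lay 6336 bp in. In Tbx15 the order was the opposite, with 21 at the start and intragenic heights of 9, 4, 5, 3 and 3 from 3216 to 12368 bp. Nfia, a nuclear factor I gene of 536933 bp, had 4 intervals, all intragenic, between 175289 and 196585 bp from the start, with heights of 5, 5, 5 and 11.

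**Figure D4:**
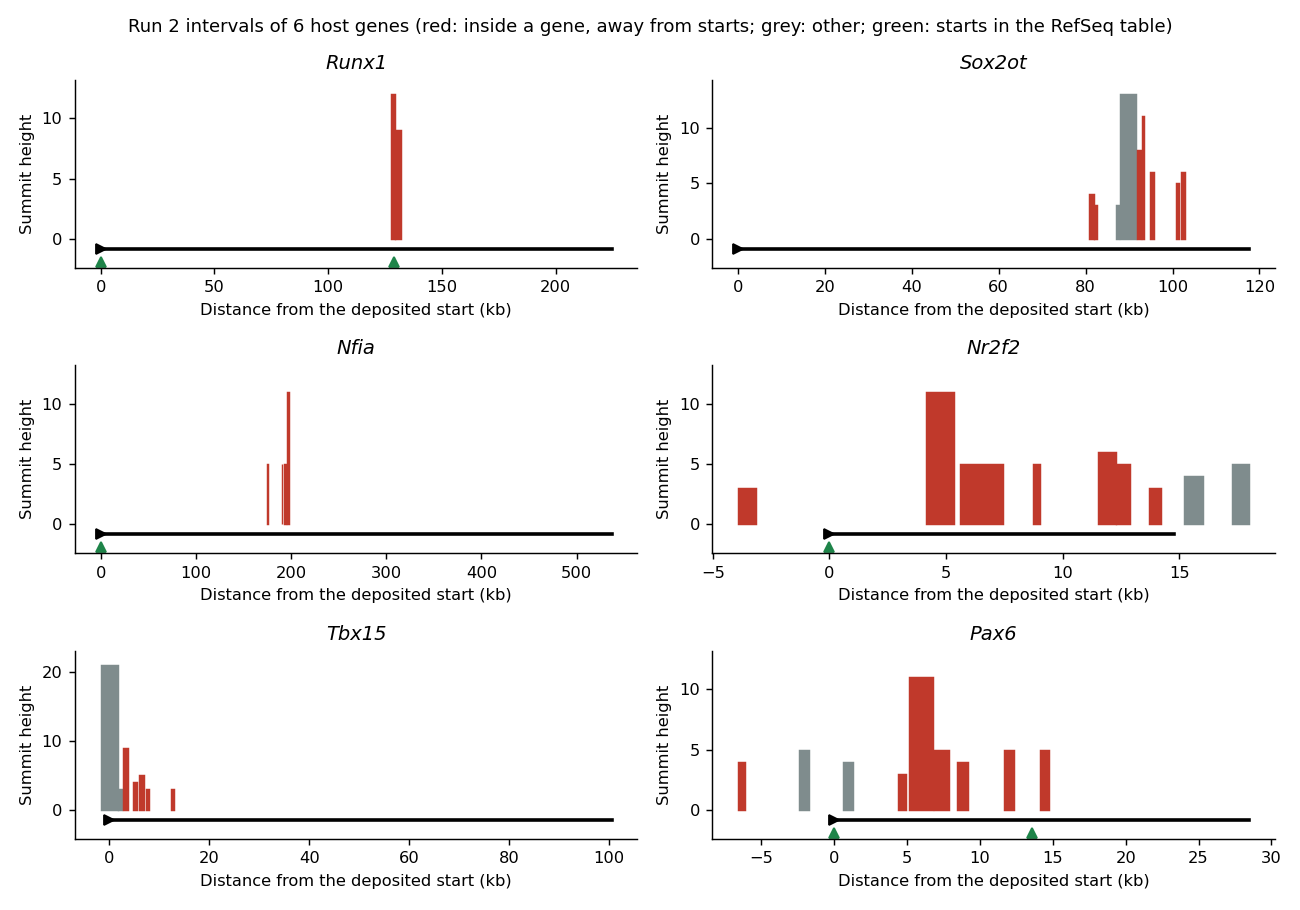
Run 2 intervals assigned to 6 host genes: distance from the deposited start (kb, horizontal axis, to scale) against summit height (authors' units), with intragenic intervals in red, others in grey, the gene as a black line from its start, and RefSeq table starts, where it lists them, as green marks. In Runx1, Nfia, Sox2ot and Nr2f2 no bar stands at the deposited start, in Tbx15 the bar at the start is the highest, and in Sox2ot the bars stand in the far part of the gene; red bars left of a start lie in a neighbouring gene.

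Along the host gene the median position was 49.6% of the gene length, with 7.46 to 11.8% of intervals in each step of 10% of the length. This spread depends on the rule, which takes out the first 2500 bp of each host and so leaves only later positions in short genes. With more than 1000 bp required from every start, the median position was 37.9%. The summits of 119 (17.4%) lay within 2.5 kb of the 3' end of the host, 86 of them among the 113 intervals in genes under 10 kb, where little else of the gene is left by the rule. The farthest from a host start were in very long genes: Cntnap2, a neuronal adhesion gene, at 1337027 bp (height 3), Csmd1 at 1301380 bp (height 3), Fhit at 1035152 bp (height 6), Auts2 at 1004407 bp (height 7) and Pard3b at 1000424 bp (height 4). Fhit had a run 1 height of 1 at that interval and Csmd1 had 0.

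Short and long host genes differed. Of 18891 protein-coding genes over 2500 bp long, 496 held an intragenic interval (2.63%) and 2131 had a start interval (11.3%). Intragenic intervals were held by 1.44% of genes of 2.5 to 10 kb, 1.84% of those of 10 to 100 kb and 8.77% of those of 100 kb or more, while start intervals were found at 9.41%, 11.1% and 15.9%. Among the holders, the start was also bound in 73.2%, 31.1% and 26.3%. The 113 intervals in hosts under 10 kb had a median width of 749 bp, and 13.3% had a height of 10 or more, against 621 bp and 3.32% for the 271 in hosts of 100 kb or more. These shares were not corrected for gene length.

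The groups of genes that held intragenic intervals were counted over protein-coding genes longer than 2500 bp, against the 2.63% of all such genes, and no list was tested. The lists were not matched for gene length, and among all genes of 100 kb or more the share was 8.77%. Of 96 developmental transcription factors other than Hox genes, 56 held one (58.3%, exact 95% interval 47.8 to 68.3%), and 77 had a start interval (80.2%), 45 of them both. With 5000 bp required from every start, 27.1% of them held an intragenic interval. The highest were Nkx6-1 (16), Sim2 (15), Irx5 (13) and Ebf3 (12). Of 32 Hox cluster genes, which set position along the body, 9 held one (28.1%, 13.7 to 46.7%) and 25 had a start interval (78.1%); at over 5000 bp from starts the share holding one was 12.5%. Hoxd11 reached 13, Hoxa10 reached 11, and Evx2 and Hoxa3 reached 8. In the Hox clusters, an interval in a gene body can lie within 2500 bp of a neighbour's start and then counts as a start interval.

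Of 31 factors of tooth and jaw mesenchyme or the adjoining epithelium, 12 held an intragenic interval (38.7%, 21.8 to 57.8%) and 15 had a start interval (48.4%), with 6 in both; at over 5000 bp from starts 19.4% held one. Among the highest were Runx1 (12), Pitx1 (11) and Tfap2a (9), an AP-2 gene of neural crest and epithelium. Runx2, the master regulator of osteoblasts and needed for tooth formation, held 3 of height 4 with none at its start, and Runx3 held 3 of up to 5, also with none at its start. All 3 Runx genes thus carried Ring1b inside the gene and not within 2500 bp of the deposited start.

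Signalling genes held intragenic intervals at shares of 2.33 to 6.15%, beside 2.63% of all genes, and each exact 95% interval included that value. Wnt pathway genes had an intragenic interval at 4 of 65 (6.15%), with Axin2, a feedback inhibitor, and the receptor gene Lgr5 at 5 and Dvl1 and Lef1 at 4, while 21.5% had a start interval. BMP and TGF-beta genes had 1 of 43 (2.33%), at Tgfb1 with height 3, against 37.2% at the start. FGF and receptor tyrosine kinase genes had 1 of 38 (2.63%), at Igf1r with height 4, and Hedgehog and Notch genes 2 of 34 (5.88%), at Rbpj, the Notch pathway's DNA-binding factor, with height 8 and at Maml2 with 3. Axon guidance and adhesion genes had 3 of 62 (4.84%), at Efna5 (6), Nrxn3 (4) and Cdh13 (3).

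Genes of Polycomb and other chromatin proteins had 5 of 64 (7.81%, 2.59 to 17.3%), namely Auts2 (7), Rybp (4), Bcor (3), Bmi1 (3) and Jarid2 (3) (1.56% at heights of 5 or more), most of them subunits or partners of Polycomb complexes themselves. Cell cycle genes had 2 of 42 (4.76%), Cdkn2a with 4 intervals of 4 to 5 and Myc with 1 of 3. Housekeeping genes had 1 of 27 (3.70%), Ywhaz with 6, although 44.4% had a start interval. Of the extracellular matrix and odontoblast genes, 5 of 33 held an intragenic interval (15.2%, 5.11 to 31.9%) and 1 had a start interval (3.03%, 0.0767 to 15.8%), and these ranges overlap. These were Lama1 (10), Adamts17 (4), Adamts2 (3), Col12a1 (3) and Col4a2 (3). At heights of 5 or more, Lama1 was the 1 left, and the share was 3.03%, equal to the share with a start interval of any height. None of the 5 had a start interval.

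Among marker genes of cell types that the sort could also hold, intragenic intervals were found at 0 of 11 endothelial, 0 of 14 immune, 0 of 13 glial and neuronal, 1 of 6 erythroid (Tal1), 1 of 13 muscle (Pax7) and 1 of 15 incisor stem cell and pericyte markers (Axin2). Lists this short hold 0 or 1 gene at the 2.63% of all genes. A count of 0 of 14 immune genes allows a share of up to 23.2% by the exact 95% interval. Ring1b at a marker gene does not tell whether its cell type was in the sort.

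**Figure D5:**
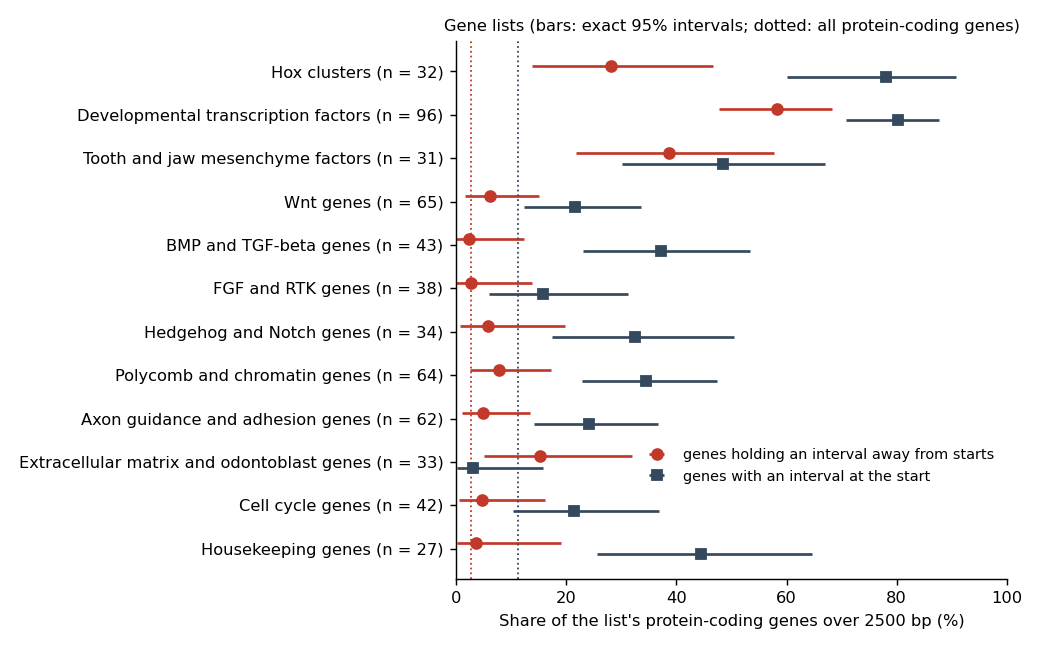
Share of each list's protein-coding genes over 2500 bp (horizontal axis, percent) that hold an intragenic interval (red circles) or have a start interval (dark squares), with exact 95% intervals; dotted lines mark all such genes, 2.63% in red and 11.3% in dark. Developmental factors, tooth and jaw factors and Hox genes hold the largest shares in red, and for extracellular matrix genes the red share is above the dark one, with bars that overlap; at heights of 5 or more that red share is 3.03%.

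Few intragenic intervals were called in both runs. In all, 17 overlapped a run 1 interval by 1 bp or more (2.49%, exact 95% interval 1.45 to 3.95%), against 1.89% (1.39 to 2.51%) of start intervals, 4.07% of flanking intervals and 2.11% of all run 2 intervals. By run 2 height the share was 0 of 188 at heights 2 to 3, 5 of 335 at 4 to 5, 5 of 125 at 6 to 9 and 7 of 36 at 10 or more (19.4%, 8.19 to 36.0%). Arrdc3 was 16 in run 2 and 4 in run 1, Sim2 15 and 3, Sp8, a zinc finger gene of limb and face, 12 and 4, and Isl2, a LIM homeobox gene, 12 and 3. Pitx1 was 11 in run 2 and 4 in run 1, Hoxa10 11 and 3, the RNA gene 4930500L23Rik beside Uncx 11 and 5, Runx1 9 and 3, Tbx15 9 and 4, and Sox2ot 8 and 4. These 10 were chosen for their run 2 heights, and how the heights of the runs were scaled to each other is not stated, so no difference between the runs is read from them.

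The other 7, lower in run 2 by that choice, are named after their values were seen. Tbx15 had 2 more, of 5 and 4 in run 2, that overlapped 1 run 1 interval of height 4. En2 and Tbx18 were 6 in run 2 and 4 in run 1, and Usp19 was 5 and 3. Dcn, the gene of decorin, a small proteoglycan of connective tissue, was 5 in both. Gucy1b2, a guanylate cyclase gene, was 5 in run 2 and 7 in run 1, over nearly the same bases (chr14:62438859-62439111 in run 2), and was the only one of the 17 that was higher in run 1.

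The deposited table also gives a mean run 1 height per gene, called or not, and for genes with a single merged region this is the region's own height. It was given in this way for 278 intragenic and 1610 start intervals. Run 1 had a height of 1 or more at 80 of these intragenic intervals (28.8%, 23.5 to 34.5%), against 708 start intervals (44.0%, 41.5 to 46.4%), and of 2 or more at 10.8% (7.40 to 15.0%), against 18.2% (16.3 to 20.2%). The share with run 1 signal was thus smaller at intragenic than at start intervals, with ranges that do not overlap. The share overlapped by a called run 1 interval was not smaller, but it was counted over all 684 intragenic and 2436 start intervals. The 2 measures cover unlike sets of intervals, so they are not compared. By run 2 height, a run 1 height of 2 or more was found at 7 of 105 intragenic intervals of 2 to 3 (6.67%), against 13.8% of start intervals, and at 14 of 140 of 4 to 5, against 17.6%. At heights of 6 to 9 it was 5 of 28 (17.9%), against 21.7%, and at 10 or more 4 of 5 (80.0%), against 12 of 23 start intervals (52.2%). The exact 95% intervals overlapped in each of these height classes, and the order was the opposite in the highest. Near another RefSeq start of the host, within 1 kb, run 1 had a height of 1 or more at 11 of 26 intervals (42.3%, 23.4 to 63.1%), against 49 of the other 182 whose host is in the RefSeq table (26.9%, 20.6 to 34.0%), and these ranges overlap. Genes with several regions are not in these counts.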

How the data were processed

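Ring1b ChIP-seq of 1 sample was analysed; input values were not analysed here. Reads were handled with BWA and SICER and the mm10 build, per the submitters' processing notes; their versions and settings are not given in the sources used here. Per the file headers, the authors deposited summit, interval and merged region tracks for runs 1 and 2 (465 and 3938 intervals), with the height of a summit as its score, and a gene table with peak heights as signal values and the mean height per run. Their scaling and the read depth are not given in the sources used here, so precision is known for counting error only. Genes are assigned up to 9992 bp from an interval. The deposited run 2 mean equalled the mean of the summit heights in 3665 of 3665 genes checked (tolerance 0.001); the run 1 mean leaves out regions at 0, as checked in 172 of 172 genes.

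Intervals were classed by the deposited position and distance to start. If an interval lay in several genes, the host is the one with the nearest start. Gene lengths for the background came from RefSeq GRCm38.p6 (3867 of 3993 genes matched); exons and introns were not used here. Shares carry exact Clopper-Pearson 95% intervals and medians exact binomial order-statistic intervals. Classification was tested on simulated data. Named are the 10 highest, the 10 widest and the 10 highest in both runs, the 5 farthest from a start, the 5 hosts with most intervals, 3 on each side of the threshold, and up to 4 hosts per list by height; a gene that this rule takes is not reported here. Further names illustrate counts and were chosen after their values were seen. The members, 19 gene lists and rules were chosen with earlier results of these data known. Python 3.11.15, numpy 2.4.6, pandas 2.3.3, scipy 1.17.1 and matplotlib 3.10.9 were used. The alternatives are given at the end.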

Additional observations from a re-analysis of the deposited data

How the results depend on the processing

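The number of intragenic intervals, their share of run 2 intervals and their width followed the distance required from a start. At more than 1000 bp the share was 24.9%, the median width 671 bp, the share with a bound host start 35.2% and the median position 37.9%. At more than 5000 bp these were 12.6%, 630 bp and 34.1%, and 10.5% lay within 2.5 kb of the host's 3' end. At more than 10000 bp there were 364 intervals (9.24%), with a median width of 612 bp, 24.2% with a bound host start, 4.67% at the 3' end, 0.824% overlapping a run 1 interval and a position of 54.8%.

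By height, 302 intervals reached 5 (15.9% of such run 2 intervals; median height 6, width 735 bp, bound host start 50.3%, 3' end 24.2%, run 1 overlap 5.30%) and 161 reached 6 (15.3%; 7, 1047 bp, 61.5%, 29.8% and 7.45%). Without intervals that had a neighbour within 10 kb, 383 were left (9.73%; 604 bp, 14.6%, 7.83% and 1.04%). This also takes out intervals within 10 kb of a bound start, so the 14.6% with a bound host start is lowered by definition. Without those near either end of a RefSeq gene the share was 13.1% (bound start 35.5%, 3' end 2.33%, position 39.9%), and without those near an assigned 3' end it was 14.1% (35.5%, 0% and 38.9%). The added alternative, chosen after seeing the data, kept intervals over 2500 bp from every RefSeq start and gave 14.3%.

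Run 1 by the same rule gave 175 intervals, 37.6% of its own: median width 580 bp, bound host start 1.71%, 3' end 10.3%, overlap with run 2 intervals 8.57% and position 53.9%. For run 1, a host start was counted as bound only by run 1 intervals, and run 1 had far fewer intervals than run 2. Fewer intervals leave fewer starts that can be bound, so the 1.71% is not compared with the run 2 share. It does not show that these host genes lacked Ring1b at their starts. Whether their starts were bound in run 2 was not tested.

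Among lists, more than 5000 bp from starts, Hox genes held an interval in 12.5%, developmental factors in 27.1%, tooth and jaw factors in 19.4%, and BMP and TGF-beta genes and erythroid markers in 0%. At height 5 or more, developmental factors were at 45.8%, Polycomb and chromatin genes at 1.56%, extracellular matrix genes at 3.03%, and BMP and TGF-beta and FGF genes at 0%. Of 142 values under alternatives, 81 stayed within the interval of the value reported, or within 1.5 times it for counts. No paired analysis was possible because there is 1 ChIP sample. GC content of whole intervals was not run, since no genome was used here.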
